A study of Mus musculus with 8 samples.

Results

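The translocon, N-glycosylation and vesicle coat genes examined here are 59 genes of the early secretory pathway, listed by symbol and by their place in the pathway. They comprise 6 SEC61 translocon genes, 4 genes of the signal sequence receptor (SSR) complex, 8 of the signal recognition particle (SRP) and its receptor, 7 of oligosaccharyltransferase, 5 of signal peptidase, 12 of the COPII coat, 9 of the COPI coat and 8 cargo and retrieval receptors. All 59 symbols matched GENCODE release M21, which holds 55304 gene symbols. A gene took the class of each H3K27ac region in which one of its transcription start sites (TSSs) fell, and 55 of the 59 had such a region.

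H3K27ac ChIP-seq was performed in mouse primary hepatocytes (MPH) from adult male WT mice of strain C57Bl6, cultured without serum. The cells received either 1 µM thapsigargin, which blocks the calcium pump of the endoplasmic reticulum (ER) and so causes ER stress (ERS), or vehicle (0.04% DMSO), both for 4 h. Each treatment had 3 H3K27ac libraries, 1 from each of 3 hepatocyte preparations, and 1 input library. Cells taken out of the liver and kept in culture without serum were the model for both groups, so no value below refers to intact liver. All 5 hepatocyte marker genes looked up (Alb, Apoa1, Ttr, Hnf4a and Cps1) had a region at a TSS, against 1 of 8 marker genes of bile duct, stellate, endothelial and immune cells (Stab2). Apoa1 and Hnf4a had DOWN regions, and none of these markers had an UP region. The processed data are lists of H3K27ac UP, DOWN and unchanged regions on mm10. A region with a false discovery rate (FDR) of at most 0.05 was listed as UP where its rising bins numbered at least 2 for each falling bin, and as DOWN where that ratio was at most 0.5. The lists hold positions only, so the depth per library is unknown, no size of change and no error between preparations can be given, and intervals cover counting error alone, with genes as units.

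The early secretory pathway begins where a ribosome with a nascent secretory protein is brought by SRP to its receptor on the ER membrane and docked on the SEC61 channel. In and around that channel, signal peptidase removes the signal sequence and oligosaccharyltransferase attaches N-glycans. Folded cargo then leaves the ER in COPII vesicles, while COPI vesicles carry escaped ER residents and cycling receptors back. Hepatocytes secrete most plasma proteins by this route, and many of its genes are known targets of the unfolded protein response, among whose transcription factors are XBP1, ATF6 and ATF4. H3K27ac marks active promoters and enhancers.

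Of the 55 genes with a region at a TSS, 43 had an H3K27ac UP region there, which is 78.2% (95% Wilson interval from 65.6% to 87.1%). Among all 12261 genes with a region at a TSS, 2620 (21.4%) had an UP region, so the share was 3.66 times as high among the early secretory genes. An H3K27ac DOWN region lay at a TSS of 1 gene, Sec16b (1.82%), against 1092 of all genes (8.91%). The interval of the former (0.322% to 9.61%) includes the latter, and the difference between the DOWN shares was not tested. The other 11 had unchanged regions alone (20.0%), compared with 70.1% of all genes. The 4 genes without a region were Srp19, Sar1b, Copz2 and Kdelr3. Of the 43, 40 had UP regions alone and 3 (Srpr, Sec16a and Copa) also had an unchanged region at another TSS. Counted by TSS, 220 of the genes' 360 TSSs lay in a region, 170 of them in UP, 49 in unchanged and 1 in DOWN regions.

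**Figure D1:**
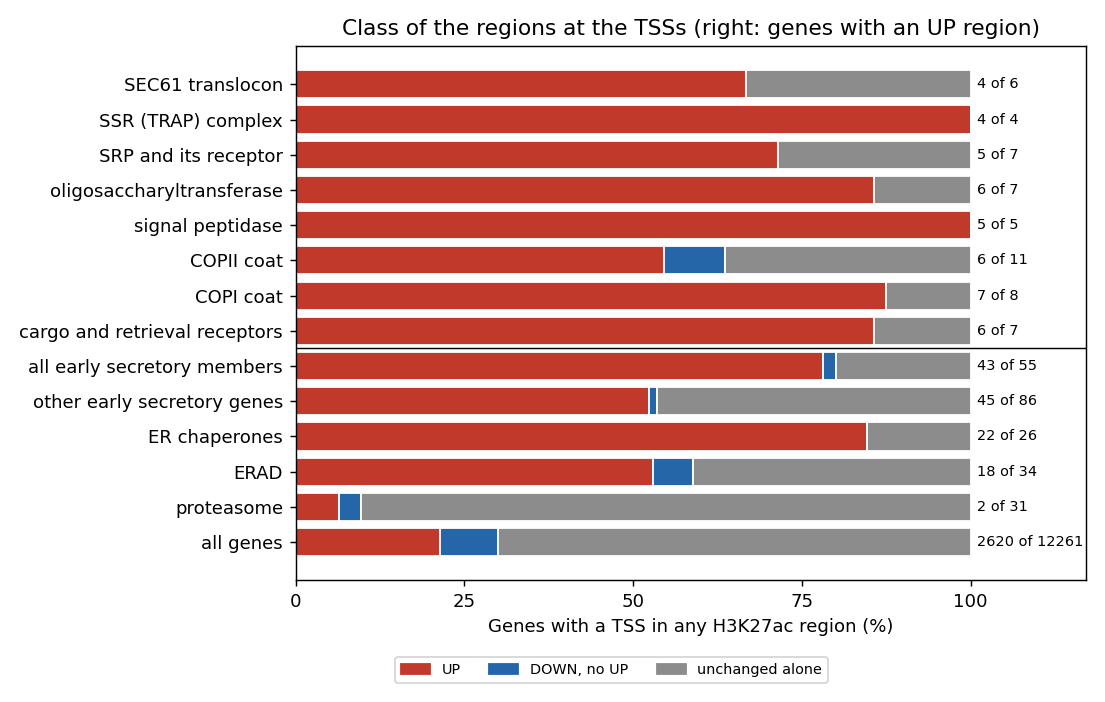
Horizontal bars show, for each group of early secretory genes and for the comparison lists, the percentage of genes with any region at a TSS that had an UP region, a DOWN region without UP, or unchanged regions alone, with the number of UP genes at the right. UP genes made 100% of the SSR and signal peptidase groups and 54.5% of the COPII coat, against 21.4% of all genes and 6.45% of proteasome genes.

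The groups did not contribute equally. All 4 SSR genes and all 5 signal peptidase genes had an UP region, followed by 7 of 8 COPI genes (87.5%), 6 of 7 oligosaccharyltransferase genes and 6 of 7 cargo and retrieval receptors (85.7% each). The SRP group had 5 of 7 (71.4%) and the SEC61 group 4 of 6 (66.7%). The COPII coat was lowest with 6 of 11 (54.5%), and it held the only gene with a DOWN region. With 4 to 11 genes a group, the intervals were wide (28.0% to 78.7% for COPII, 52.9% to 97.8% for COPI) and overlapped each other.

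Before the groups are described, the promoters of 3 genes are shown, because they hold the sequence motif that recurred most among these genes. The motif is GCCACGT, the core that XBP1 binds, and it was searched together with TGACGTG, the core of the unfolded protein response element (UPRE), on both strands. Sec24d encodes a COPII subunit that selects cargo and had an UP region, Ssr1 encodes the alpha subunit of the SSR complex and had an UP region, and Kdelr3 encodes a KDEL receptor and had no region at its TSS. Each sequence is the 250 bases before the start of the gene in RefSeq (GRCm38.p6, the assembly of mm10), 5′ to 3′ on the strand of the gene, with the matches to both cores in capitals. Sec24d lies at chr3:123267246-123267495 (plus strand), Ssr1 at chr13:37994209-37994458 (minus strand) and Kdelr3 at chr15:79516158-79516407 (plus strand).
Sec24d: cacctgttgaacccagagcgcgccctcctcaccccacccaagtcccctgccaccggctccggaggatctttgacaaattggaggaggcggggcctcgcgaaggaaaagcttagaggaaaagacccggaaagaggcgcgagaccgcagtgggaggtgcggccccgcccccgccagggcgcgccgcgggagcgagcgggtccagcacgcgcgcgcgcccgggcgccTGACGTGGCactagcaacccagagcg
Ssr1: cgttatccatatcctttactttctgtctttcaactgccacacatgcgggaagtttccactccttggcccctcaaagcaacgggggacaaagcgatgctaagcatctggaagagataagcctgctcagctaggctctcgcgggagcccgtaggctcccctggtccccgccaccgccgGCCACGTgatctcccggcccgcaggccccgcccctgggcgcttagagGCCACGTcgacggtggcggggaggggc
Kdelr3: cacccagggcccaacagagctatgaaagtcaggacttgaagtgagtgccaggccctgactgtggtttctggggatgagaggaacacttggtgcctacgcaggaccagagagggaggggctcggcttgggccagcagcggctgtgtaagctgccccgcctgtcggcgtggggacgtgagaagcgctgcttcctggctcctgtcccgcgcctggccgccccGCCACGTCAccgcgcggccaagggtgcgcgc
In Sec24d and Kdelr3 the XBP1 and UPRE cores overlap each other, while Ssr1 has the XBP1 core at 2 places.

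The SEC61 group forms the protein-conducting channel and its helpers. Sec61a1, the channel-forming alpha subunit, had an UP region of 2249 bp at chr6:88517372-88519620 that held 6 of its 12 TSSs and a TSS of Gm44430. Its paralogue Sec61a2 had an unchanged region of 554 bp at chr2:5894880-5895433, the narrowest among all the early secretory genes. The small subunits Sec61b and Sec61g both had UP regions. That of Sec61b (1953 bp, chr4:47473494-47475446) held all 4 of its TSSs and also a TSS of Alg2, a mannosyltransferase of N-glycan assembly, whereas that of Sec61g (2083 bp, chr11:16507142-16509224) held 6 of 7 and no other gene. Sec63, which couples the channel to the luminal chaperone BiP, was the only gene with UP regions at different TSSs. The wider of them, 4704 bp at chr10:42760940-42765643, held 3 of its 5 TSSs and a TSS of Gm26860, and the other, 1221 bp at chr10:42817049-42818269, held the remaining 2. Sec62, the partner of Sec63 in post-translational transport, had an unchanged region of 1815 bp at chr3:30792635-30794449.

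The SSR complex, also called TRAP, assists the insertion of a subset of proteins and sits next to the channel. Its 4 genes lie on 3 chromosomes and each had an UP region. Ssr1 had 1595 bp at chr13:37992721-37994315 with all 4 TSSs, and Ssr2 had 1040 bp at chr3:88579505-88580544 with 4 of 7. Ssr3 had 1318 bp at chr3:65391399-65392716 with 2 of 3 TSSs. These 3 regions had similar shapes: they reached only 93 to 103 bp upstream of the reference TSS (the outermost start in the region) and 936 to 1496 bp downstream. Ssr4 differed, with 2440 bp at chrX:73785656-73788095 and 1372 bp of it upstream, where a TSS of the divergent gene Idh3g also fell.

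In the SRP group, 5 of 7 genes had an UP region. Srp9 (1181 bp, chr1:182124663-182125843, 3 of 4 TSSs) encodes a subunit of the Alu domain of SRP, which pauses elongation, while its partner Srp14 had an unchanged region of 1044 bp at chr2:118479096-118480139. Srp68 (2336 bp, chr11:116272713-116275048, 3 of 4 TSSs) likewise parted from Srp72, with which it forms a heterodimer and which had an unchanged region of 1507 bp at chr5:76974108-76975614. The 2 heterodimers of the particle thus each had 1 UP and 1 unchanged gene. Srp54a, the GTPase that binds signal sequences, had an UP region of 1345 bp at chr12:55079697-55081041 with 4 of 6 TSSs, shared with 2700097O09Rik. It has near-identical copies on the same chromosome, Srp54b and Srp54c, with 4 and 2 TSSs and no region, and how reads were divided among the copies is not known, so its class is uncertain.

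Both genes of the SRP receptor had an UP region. Srpr, the alpha subunit, had 2392 bp at chr9:35210000-35212391 with 2 of its 4 TSSs and a TSS of Foxred1, and an unchanged region at an upstream TSS shared with Tirap (2047 bp, chr9:35198493-35200539). Srprb, the membrane-anchored beta subunit, had 776 bp at chr9:103201405-103202180 with 2 of 3 TSSs, the narrowest UP region of the 44. Srp19 had no region, and the nearest one was 41525 bp away.

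Oligosaccharyltransferase had an UP region at 6 of its 7 genes. The ribophorin genes Rpn1 (1407 bp, chr6:88084115-88085521, 2 of 5 TSSs) and Rpn2 (1059 bp, chr2:157278930-157279988, 5 of 11 TSSs) were both UP, that of Rpn2 with a TSS of Mroh8. Ddost had 1109 bp at chr4:138304229-138305337 with its 1 TSS. Dad1 had 1555 bp at chr14:54253265-54254819 with both TSSs and a TSS of Abhd4. Ostc, a subunit specific to the form of the enzyme that works at the translocon, had 2643 bp at chr3:130707178-130709820 with 2 of 3 TSSs. The catalytic subunits parted. Stt3a, which glycosylates proteins as they enter the ER, had an UP region of 2380 bp at chr9:36766786-36769165 with 7 of 9 TSSs (also Gm26787), whereas Stt3b, which acts mainly on sites that were skipped, had an unchanged region of 4934 bp at chr9:115306723-115311656, wider than any UP region of the complex.

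All 5 signal peptidase genes had an UP region. The accessory subunits were Spcs1 (1835 bp, chr14:31000399-31002233, all 7 TSSs, shared with Glt8d1), Spcs2 (1868 bp, chr7:99857555-99859422, 6 of 10 TSSs, shared with Xrra1) and Spcs3 (2557 bp, chr8:54528314-54530870, its 1 TSS, shared with Asb5). The paralogous catalytic subunits were Sec11a (3383 bp, chr7:80945129-80948511, 7 of 10 TSSs) and Sec11c (969 bp, chr18:65800014-65800982, 7 of 11 TSSs). The region of Sec11a was the widest of the complex and that of Sec11c the narrowest, and neither held a TSS of another gene.

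The COPII coat was the most divided group. Its inner layer is built on the GTPase Sar1 and the Sec23 and Sec24 proteins. Sar1a had an UP region of 1845 bp at chr10:61679310-61681154 with 6 of 9 TSSs, shared with 1700022H01Rik. Both Sec23 paralogues were UP, Sec23a with 2978 bp at chr12:59011010-59013987 (2 of 5 TSSs, shared with Gemin2) and Sec23b with 1502 bp at chr2:144555426-144556927 (6 of 8 TSSs). Of the 4 Sec24 paralogues, which choose the cargo, Sec24d alone had an UP region, of 2592 bp at chr3:123266533-123269124 with 3 of 8 TSSs. Sec24a, Sec24b and Sec24c had unchanged regions. That of Sec24a (5822 bp, chr11:51755183-51761004) was the widest unchanged region among genes with unchanged regions alone, and the same region was the nearest to Sar1b, at 2683 bp. Sec24a and Sar1b are annotated head to head on opposite strands, and no region held the facing starts.

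In the outer layer of the coat, Sec31a had an UP region of 5334 bp at chr5:100412255-100417588 with 3 of 12 TSSs, while Sec13, which also belongs to the nuclear pore, had an unchanged region of 747 bp at chr6:113740101-113740847. Sec16a and Sec16b encode scaffolds of ER exit sites and went separate ways. Sec16a had an UP region of 3440 bp at chr2:26443790-26447229 with 3 of 8 TSSs (also 0610009E02Rik), and unchanged regions of 3554 bp and 7170 bp at TSSs farther into the gene, the latter shared with Inpp5e. Sec16b had an unchanged region of 1737 bp at chr1:157506492-157508228 with 2 of 5 TSSs, and a DOWN region of 2647 bp at chr1:157525404-157528050 with 1 internal TSS. With each gene counted once by the region with most of its TSSs, Sec16b was unchanged and no early secretory gene was DOWN.

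**Figure D2:**
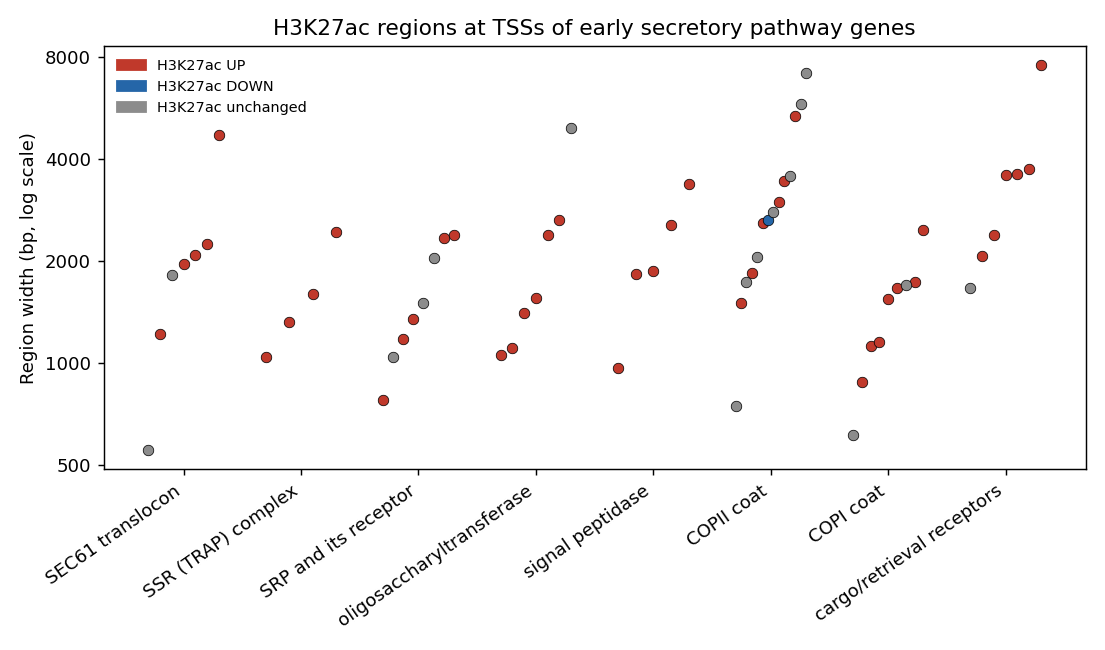
Each point is 1 H3K27ac region at a TSS of an early secretory gene, placed by its width in bp on a log axis and coloured by its class, with the regions of each group ordered by width. The 44 UP regions spread from 776 bp (Srprb) to 7554 bp (Lman1), and the DOWN region of Sec16b (2647 bp) lies among the UP and unchanged regions of the COPII coat.

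The COPI coat had UP regions at 7 of its 8 genes with a region. Copa had 1661 bp at chr1:172082080-172083740 with 5 of 10 TSSs, shared with Ncstn, and an unchanged region of 1704 bp (chr1:172098608-172100311) at 1 internal TSS. The beta subunits Copb1 (1121 bp, chr7:114253946-114255066, 2 of 3 TSSs) and Copb2 (1545 bp, chr9:98562970-98564514, 2 of 6 TSSs, shared with 4930579K19Rik) were both UP. So were Cope (1157 bp, chr8:70302086-70303242, 6 of 8 TSSs, shared with Ddx49) and Arcn1, the delta subunit (1731 bp, chr9:44766746-44768476, 3 of 6 TSSs, shared with Ift46). The gamma and zeta subunits exist as paralogue pairs, and in each pair 1 gene was UP. Copg1 had 2475 bp at chr6:87886130-87888604 with 4 of 10 TSSs, against an unchanged 615 bp region of Copg2 at chr6:30896213-30896827 that held all 8 TSSs. Copz1 had 877 bp at chr15:103272850-103273726 with 3 of 4 TSSs, and Copz2 had no region within 18034 bp of its start, where the nearest was UP.

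Of the 8 groups, cargo and retrieval receptors had the highest median width, 3580 bp for the widest region of each gene. Lman1 (ERGIC-53), a lectin that exports glycoproteins, had the widest UP region among the early secretory genes examined here, 7554 bp at chr18:65998182-66005735 with 5 of 9 TSSs. Mcfd2, its partner in the export of coagulation factors, had 3580 bp at chr17:87262942-87266521 with all 7 TSSs. Surf4, an export receptor, had 3741 bp at chr2:26930489-26934229 with all 3 TSSs and a TSS of Stkld1. The p24 proteins Tmed2 (2381 bp, chr5:124540313-124542693, 4 of 5 TSSs) and Tmed10 (2075 bp, chr12:85373688-85375762, 3 of 4 TSSs, shared with Gm47819) were UP too. The KDEL receptors, which return ER chaperones, were each in another state. Kdelr2 had an UP region of 3606 bp at chr5:143403261-143406866 with its 1 TSS (also Gm20635), Kdelr1 an unchanged one of 1669 bp at chr7:45872734-45874402, and Kdelr3 none, the nearest being an unchanged region of 858 bp at a distance of 12503 bp.

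**Figure D3:**
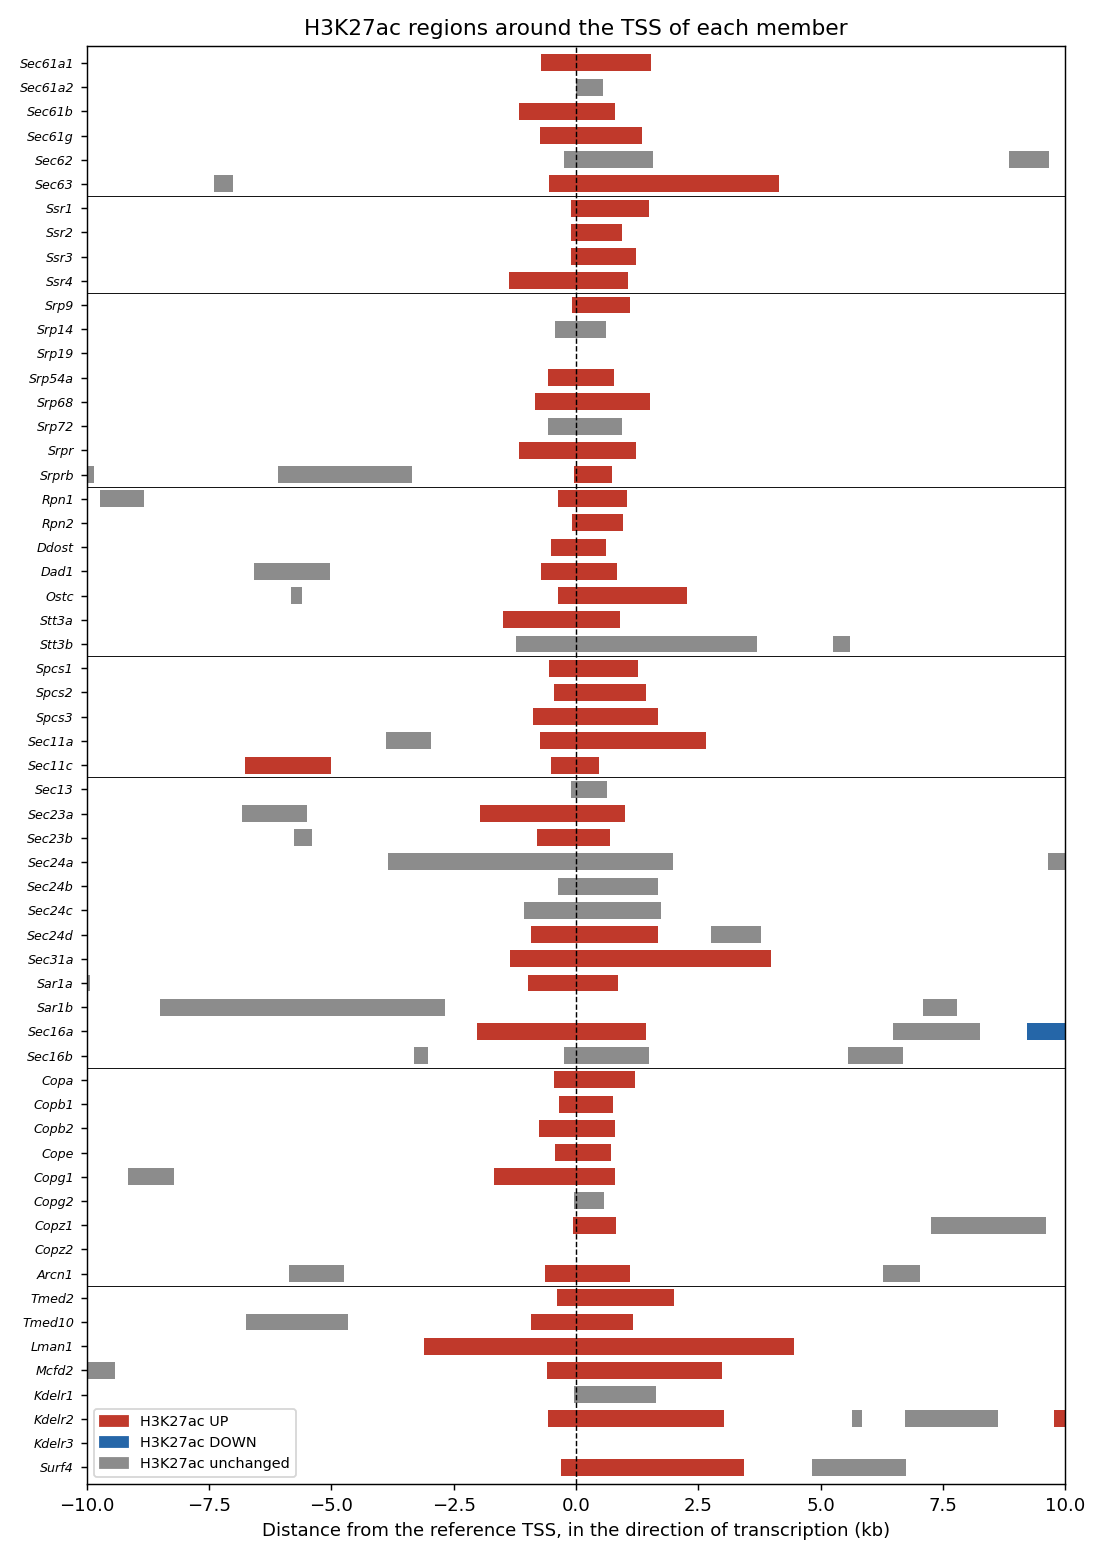
For each early secretory gene (rows, grouped by complex), bars show the H3K27ac regions within 10 kb of the reference TSS by distance in the direction of transcription (kb), coloured UP, DOWN or unchanged. Most regions at the TSS, UP and unchanged, run farther downstream than upstream, and Srp19, Copz2 and Kdelr3 have no region in the window.

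Several sets of paralogues had different classes. Sec11a with Sec11c, and Sec23a with Sec23b, were UP on both sides, as were the p24 genes Tmed2 and Tmed10, while Sec24a, Sec24b and Sec24c were all unchanged. In Sec61a1 and Sec61a2, Stt3a and Stt3b, and Copg1 and Copg2, the former was UP and the latter unchanged. In Sar1a and Sar1b, and Copz1 and Copz2, the former was UP and the latter without a region. A class of unchanged says that the threshold was not passed, while no region says only that no listed region held a TSS of the gene. The difference between paralogues was not tested, since no value per library is given.

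The reference TSS of a gene is the outermost of its TSSs in the region that holds most of them, so regions tend to reach past it in the direction of transcription. Around the reference TSS of the 43 UP genes, the region reached a median of 586 bp upstream and 1159 bp downstream, and it was longer downstream in 34 of 43. Unchanged regions at the reference TSS had medians of 301.5 bp upstream and 1537 bp downstream, and were likewise longer downstream in 11 of 12. For 21 of the 43 (48.8%), every UP region also held a TSS of another gene, 14 of them with a protein-coding gene, so these regions cannot be given to 1 gene. The same held for 1189 of the 2620 UP genes in all (45.4%). With the regions that hold TSSs of several genes left out, 35 early secretory genes kept a region and 22 of them an UP region (62.9%), against 19.1% of all genes counted in that way. Copa and Sec16a were among those 35 with unchanged regions alone, since their UP regions are shared.

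Region width was considered because wider regions were more often called in the whole data. The widest region at a TSS had a median of 1868 bp for the early secretory genes and 1850 bp for all genes, with a range from 554 to 7554 bp among the former. Under 1 kb, 3 of 6 early secretory genes were UP (50.0%) against 11.0% of all genes. From 1 to 2 kb, 19 of 23 were UP (82.6%) against 19.7%, and from 2 to 4 kb 17 of 20 (85.0%) against 25.6%. At 4 kb and over, 4 of 6 were UP (66.7%) against 29.3%. The bands go by the widest region of any class. Sec16a was counted in this last band by its unchanged region of 7170 bp, while its UP region had 3440 bp. The share was thus above that of all genes in each band of width, although the bands under 1 kb and from 4 kb held only 6 of these genes each. With all genes weighted to the widths of the early secretory genes, the background was 22.1%. DOWN genes in the whole data were wide, from 1.39% of genes under 1 kb to 27.3% at 4 kb and over, whereas 10.9% of the early secretory genes reached 4 kb (17.1% of all genes) and none of the 55 reached 10 kb.

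**Figure D4:**
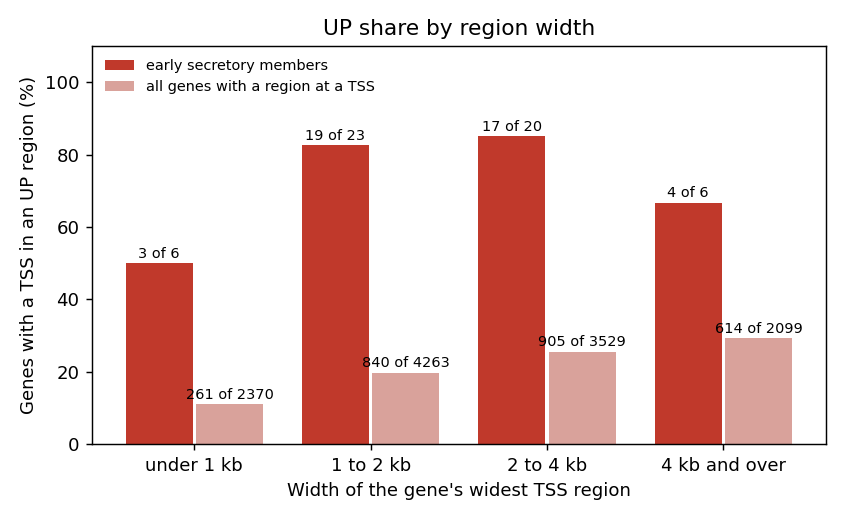
Bars give the percentage of genes with an UP region at a TSS in 4 bands of the width of the gene's widest TSS region, for early secretory genes (dark) and all genes with a region at a TSS (light), with counts above the bars. The dark bar is higher in every band, from 50.0% against 11.0% under 1 kb to 85.0% against 25.6% from 2 to 4 kb.

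Regions around these genes had classes in shares close to those of all regions. Within 50 kb of the reference TSSs lay 182 further regions that held no TSS of these genes, of which 32 were UP (17.6%), 17 DOWN (9.34%) and 133 unchanged (73.1%). Over all 32196 regions the shares were 17.1% UP and 10.5% DOWN. Without any TSS, 18 of 121 such regions were UP (14.9%), compared with 16.1% of the 21554 regions without a TSS in the whole data. Leaving out regions at a gene's own TSSs, DOWN regions lay within 50 kb of 11 of the 59 genes, 10 of which were UP at a TSS. UP regions lay as near to 25 of the 59, 21 of which were UP at a TSS. The same counts were not made for all genes. Sec16a had an UP region at its start and 3 DOWN regions in its gene body, and Sec31a had 1 DOWN region in its gene body. Sec11a, Sec23b, Copb1 and Kdelr2 each had a further UP region in the gene body.

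The motif shown above for Sec24d, Ssr1 and Kdelr3 was counted in RefSeq promoters of 300 bases, from 250 bases before to 50 bases after the start. The promoter table held 48 of the 59 genes, with 52 promoters. Sec61a1, Ssr2, Srp19, Srp68, Ostc, Spcs3, Sec11c, Arcn1, Tmed2, Lman1 and Kdelr2 are not in the table. The XBP1 core GCCACGT, or its reverse complement ACGTGGC, was present in 16 of the 52 promoters (30.8%), against 846 of all 32851 promoters (2.58%) and 3.86% of the 10984 promoters of genes with a region. Of the 17 matches, 13 began between 80 bp before and 25 bp after the RefSeq start, and 11 lay in an UP region. Median GC content was 59.7% for these promoters and 60.7% for promoters of genes with a region, with 22 and 21 CpG sites per promoter.

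Of the 17 matches, 12 had the core as written and 5 its reverse complement. Some of those with the core as written are shown with 15 bases on each side, for genes of several complexes. Sar1a and Sec13 both belong to the COPII coat. Capitals mark the 7-base core, and the strand is that of the gene. The windows lie at chr10:42761458-42761494 (Sec63, plus strand), chr9:103202081-103202117 (Srprb, minus), chr14:31001706-31001742 (Spcs1, minus), chr10:61680112-61680148 (Sar1a, plus), chr6:113740663-113740699 (Sec13, minus) and chr17:87266117-87266153 (Mcfd2, minus), and all have the core as written.
Sec63: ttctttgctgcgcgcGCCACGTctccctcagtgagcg
Srprb: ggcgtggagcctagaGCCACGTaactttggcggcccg
Spcs1: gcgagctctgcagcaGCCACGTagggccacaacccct
Sar1a: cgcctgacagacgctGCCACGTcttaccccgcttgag
Sec13: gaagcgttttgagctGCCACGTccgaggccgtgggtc
Mcfd2: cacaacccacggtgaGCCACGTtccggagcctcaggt
All but Sec13 had an UP region at the TSS. The other genes with a match were Ssr3, Sec23a, Sec31a and Copg1, which were UP, Sec24c, which was unchanged, Sec16b, whose match lay in its unchanged region, and Copz2, which had no region.

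The UPRE core TGACGTG, or CACGTCA on the other strand, was present in 7 of the 52 promoters (13.5%), against 2.01% of all promoters and 2.98% of promoters of genes with a region. These were Srpr, Sec23a, Sec24d, Sec16b, Copb1, Copb2 and Kdelr3. Copb1 and Copb2, the beta subunits of COPI, both had it on the other strand, 27 and 6 bp before the RefSeq start, at chr7:114254686-114254722 (minus strand) and chr9:98563710-98563746 (plus strand).
Copb1: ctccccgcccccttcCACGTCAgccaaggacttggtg
Copb2: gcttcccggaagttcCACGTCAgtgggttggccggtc
Counted by gene, 19 of 48 had either core, 14 of them UP, and 4 promoters had both. The cores overlap by their shared letters, so both counts can arise from the same bases.

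The XBP1 core did not separate UP genes from the rest of the early secretory genes. It was found in 11 of 33 UP genes, in 3 of 12 with a region but no UP region (Sec13, Sec24c and Sec16b) and in 2 of 3 without a region (Copz2 and Kdelr3). The sets that were not UP are small. In the whole data the core was in 160 of 2331 promoters of UP genes (6.86%). Among promoters of genes with any region, which include those of the UP genes, it was in 424 of 10984 (3.86%). Other stress elements were rare. The ER stress element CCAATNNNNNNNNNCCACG, a site of ATF6, was in none of the 52 promoters but in 6 of 29 promoters of ER chaperones (20.7%) and in 0.119% of all promoters. The second form of the element (ATTGGNCCACG) and the ATF4 element (TGATGNAAT) were in none of the 52 (0.0365% and 0.965% of all promoters). The cyclic AMP response element TGACGTCA was in 1, that of Cope (1.79% of all promoters). The elements were searched on both strands, and a match or its absence describes the letters in this window alone.

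**Figure D5:**
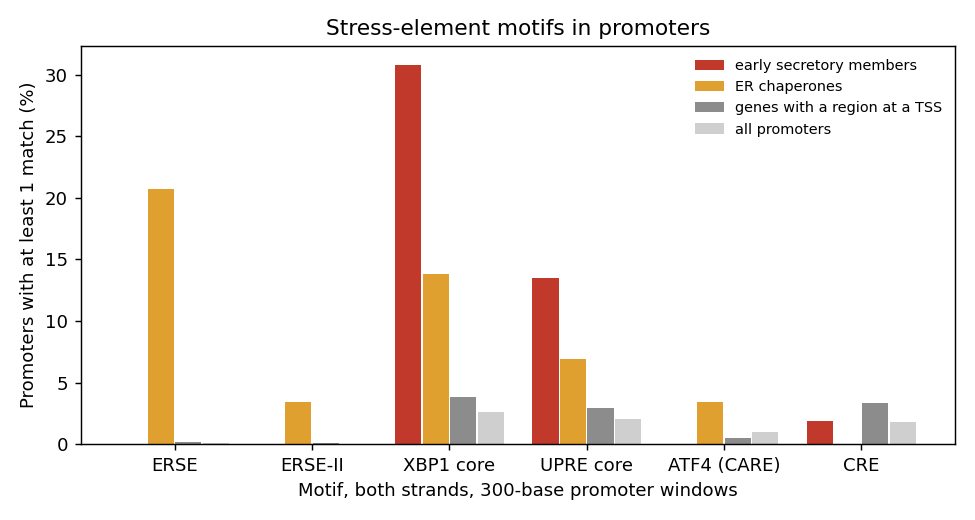
Bars give the percentage of RefSeq promoters (300 bases) with at least 1 match to each of 6 motifs on either strand, for early secretory genes, ER chaperones, genes with a region at a TSS and all promoters. The XBP1 core reached 30.8% in early secretory promoters and 13.8% in ER chaperone promoters, while the ER stress element (ERSE) was at 0% and 20.7%.

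Related gene lists differed in their UP shares. Of 26 ER chaperone genes with a region, 22 had an UP region (84.6%) and none a DOWN region, with the widest UP regions at Creld1 (8557 bp), Hspa5, which encodes BiP (6701 bp), and Dnajc3 (6492 bp). Of 34 genes of ER-associated degradation (ERAD), 18 were UP (52.9%), among them Derl1 (8089 bp) and Herpud1 (7025 bp). Of 86 other early secretory genes, such as those of glycan assembly, tethers and SNAREs, 45 were UP (52.3%), a share below that of the translocon and coat genes. Proteasome genes had an UP region in 2 of 31 (6.45%), Psmc2 and Psma5. The Wilson intervals were 65.6% to 87.1% for the 55 translocon and coat genes and 41.9% to 62.6% for the other early secretory genes. They were 66.5% to 93.8% for ER chaperones, 36.7% to 68.5% for ERAD genes and 1.79% to 20.7% for the proteasome. The lists were chosen with earlier results known, so the difference between them was not tested. Alg2, counted among the other early secretory genes, shares its UP region with Sec61b, so the lists are not independent. The widest region at a TSS had a median of 1868 bp for the translocon and coat genes and 1597 bp for the other early secretory genes.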

How the data were processed

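H3K27ac ChIP-seq libraries of MPH (3 per treatment, with 1 input each) were mapped to mm10 and peaks were called, with Bowtie and MACS2 named in the submitters' processing notes. According to the methods of the study, reads were counted in 150 bp bins, filtered against input, normalized by loess and tested with csaw with pairing by experiment, and the bins that overlap a peak were combined. The deposited lists give region positions (chromosome, start and end in bp) as the only values, without counts or signal. TSSs of 141730 transcripts (GENCODE M21, 21 chromosomes) were intersected with the regions. The genes, groups, comparison lists and motifs were chosen with earlier results of these data known, so no test was run over them and shares are given beside those of all genes. The markers of liver cells were added after the files were read. Every one of the 59 genes is accounted for, those with UP or DOWN regions by position. Promoters came from RefSeq (GRCm38.p6). The assignment was tested on simulated data. Intervals are 95% Wilson. Python 3.11.15, numpy 2.4.6, pandas 2.3.3, scipy 1.17.1 and matplotlib 3.10.9 were used. No fold change, p-value or depth per library was used.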

Additional observations from a re-analysis of the deposited data

How the results depend on the processing

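Of 123 values recomputed under 10 alternative settings, 100 moved by less than their counting interval or, for counts, by less than 1.5 times, 23 moved more and none reversed. The UP share of early secretory genes (78.2%) moved once, to 62.9% without regions that hold TSSs of several genes, and the DOWN share (1.82%) was 0% with each gene counted by the region with most of its TSSs, 8.93% for TSSs within 10 kb and 2.86% without multi-gene regions. The UP share of all genes (21.4%) was 20.4% by the widest region, 20.3% by the region with most TSSs, 26.9% for TSSs within 10 kb, 24.3% where the region covers 500 bp on each side of the TSS, 23.7% for regions of at least 1 kb, 4.74% over all annotated genes and 19.1% without multi-gene regions. Their DOWN share (8.91%) was 7.98% by most TSSs, 7.66% for protein-coding transcripts, 14.1% within 10 kb, 11.9% at 500 bp, 10.6% from 1 kb, 1.97% over all annotated genes, 9.58% without multi-gene regions and 7.67% weighted by width. The UP difference between early secretory and all genes (56.8 percentage points) was 68.1 over all annotated genes and 43.7 without multi-gene regions. The DOWN difference (-7.09) was -9.43 at 500 bp. Over all annotated genes it was -0.28, which lies within its counting interval (-8.67 to 0.72). The setting of 500 bp leaves out genes whose regions do not reach that far, and keeps 41 early secretory genes, 33 of them UP (80.5%). The UP counts over the genes kept fell from 4 to 2 for SSR, 5 to 3 for SRP and 6 to 3 for oligosaccharyltransferase. They also fell from 7 to 5 for COPI and from 5 to 4 for signal peptidase, and stayed the same in the other groups. The number of genes kept in each group is not given, so a lower count is not a lower share. No paired analysis was possible because the lists give positions alone. Leaving out each replicate and a stricter FDR need values that the lists lack and were not run. The cause of the other shifts was not tested.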

Other observations

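Within the other early secretory genes, the families differed in their counts. Of the Alg genes, which assemble the N-glycan precursor, 5 of 12 had an UP region at a TSS (Alg2, Alg3, Alg5, Alg9 and Alg12). Of the genes of the ER membrane complex, which inserts membrane proteins, 2 of 9 had one (Emc2 and Emc4), a share of 22.2% next to 21.4% of all genes. Of the further Tmed genes with a region, 4 of 6 had one, and of the Arf genes and their GTPase-activating proteins 3 of 7. By their widest region at a TSS, the widest UP genes of this list were Mia2, Ost4 and Arf1. Mia2 had 6333 bp as the widest among its UP and unchanged regions. Ost4, a small oligosaccharyltransferase subunit, had 5090 bp, and Arf1, which recruits the COPI coat, had 3536 bp. Its 1 gene with a DOWN region was Arfgap2 (7076 bp). The proteasome had 1 such gene, Psmd13. The XBP1 core was in 17 of 95 promoters of the other early secretory genes (17.9%), in 6 of 34 of ERAD genes (17.6%) and in none of 27 of proteasome genes.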
